A study of Saccharomyces cerevisiae with 5 samples.

Results

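The pheromone signalling and response genes of budding yeast were followed in cells that lack VTS1 and in their wild type. They are 10 genes chosen by name, AGA1, FUS1, FUS3, SST2, FAR1, GPA1, STE4, STE12, KAR4 and MSG5, out of 5656 genes with a probe set of their own on the array. They were read by 12 of the 9335 probe sets, 1 for each gene but FUS3, which has 3. RNA was measured on 5 single-colour Affymetrix arrays, 3 from a strain with a vts1 deletion in BMA64 and 2 from BMA64 itself, a laboratory strain of the W303 type. Both groups were grown in steady state in SD medium at 30 degrees and were collected at an optical density (OD600) of 0.4, and the same note of a chemical transfection for VTS1 stands on all 5 arrays. The labels do not say that pheromone was added or which mating type the strain has. They also do not say how the deletion was made, whether the 3 deletion arrays come from 1 clone, or whether arrays of a group come from separate cultures, so the p-values speak of differences among these arrays, whose spread may be technical only. The title of deletion replicate 3, unlike those of replicates 1 and 2, does not name the deletion, and its source label does.

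In the pheromone response, a peptide from cells of the opposite mating type binds a receptor at the surface of a haploid cell and frees the beta and gamma subunits of a G protein from its alpha subunit. A scaffolded kinase cascade then activates the kinase Fus3, which releases the transcription factor Ste12 from its inhibitors. Ste12 raises genes for adhesion, cell fusion and nuclear fusion, and also genes of the pathway itself, among them inhibitors that end the signal. Many of these genes have a low basal level in cells that meet no pheromone. Vts1, the protein missing here, recognises hairpin loops in target transcripts through its SAM domain and speeds up their decay.

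VTS1 itself had signals of 19, 17.8 and 55 on the deletion arrays, against 4952.3 and 5079.9 on the wild type arrays. A signal is the brightness that the program MAS5 gave a probe set, on a linear scale, and it was compared only within a probe set. The level below which a signal could not be told from background, set for each array from 28 control probe sets without a yeast target, lay between 125.6 and 166.7 on the deletion arrays and at 161.1 and 98 on the wild type arrays. Of 7 a-cell marker genes, 6 were above that level on all 5 arrays (the exception was ASG7). The summed signal of the 7 was 111765 to 125753 in the deletion strain and 96672 to 104648 in the wild type, most of it from MFA1 and MFA2. The tested a-cell markers went both ways, so the sum does not describe each of them. AGA2, BAR1 and STE6 had log2 changes of -0.49, -0.29 and -0.11, and MFA1, MFA2 and STE2 of 0.36, 0.30 and 0.04. All deletion arrays lay below both wild type arrays for AGA2 and BAR1, and above them for MFA1 and MFA2. Of 4 alpha-cell markers 1, SAG1, was above background on all arrays, with sums of 930 to 995.6 in the deletion strain and 1043 to 1143 in the wild type. MF(ALPHA)1, an alpha-factor gene, was too dim to be tested and had signals of 116.3, 178.5 and 108.3 in the deletion strain, against 326.2 and 262.2 in the wild type, so every deletion array was lower. It was above background on both wild type arrays and on 1 deletion array. For the other alpha-cell markers, SAG1 (log2 change 0.15, adjusted p = 0.785), MF(ALPHA)2 and STE3, the groups overlapped. None of the a-cell and alpha-cell markers was at 0. Of the 7 bright enough to be tested only AGA2 passed (adjusted p under 0.05), as lower. Over all probe sets tested, 3.05% were called lower and 4.39% higher at that threshold. Of 7 markers of meiotic cells, 2 (IME1 and IME2) were above background on all arrays, with sums of 912.5 to 1139 in the deletion strain and 921.4 to 1211 in the wild type. IME1, the activator of early meiotic genes, had signals of 186.8, 344.5 and 271.6 in the deletion strain, against 370.7 and 591 in the wild type (log2 change -0.85 ± 0.33, adjusted p = 0.160). NDT80, the activator of middle meiotic genes, was too dim to be tested and had 223.3, 255.8 and 161.8 in the deletion strain, against 122.3 and 23.3 in the wild type. All deletion arrays were thus lower for IME1 and higher for NDT80, which was below background on both wild type arrays. For IME2, HOP1, REC8, SPO11 and SPO13 the groups overlapped. Over all probe sets tested, every deletion array lay below both wild type arrays for 21.7% and above them for 16.8%. Actin, a check on RNA quality, had a signal ratio of its 3' end over its 5' end of 1.51, 1.35 and 1.25 in the deletion strain and 1.34 and 1.17 in the wild type. The part of marker levels and RNA quality in the changes described here was not tested.

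Of the 10 genes, AGA1, a subunit of the mating agglutinin, FUS1, a cell fusion protein, and SST2, an inhibitor of the G protein signal, fell past the threshold (adjusted p under 0.05), and none rose (also none at an unadjusted p under 0.05, where 6 were lower). Over all 6294 probe sets tested, 3.05% were called lower and 4.39% higher, and at an unadjusted p under 0.05 the shares were 11.1% and 10.3%. All 10 genes had a log2 change, deletion minus wild type, below 0, from -1.29 for FUS1 to -0.02 for STE12, with a median of -0.48. Over all probe sets tested, the median was -0.04 and 54.8% lay below 0. In 7 of the 10 genes every deletion array lay below both wild type arrays, against 21.7% of all probe sets tested. The 10 genes were chosen with earlier results of these data known, so setting them against all probe sets is no independent test. All 10 genes passed the filter on dim probe sets and were above background on all 5 arrays. In RNA from whole cultures, fewer cells with a transcript and less transcript per cell cannot be told apart.

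**Figure D1:**
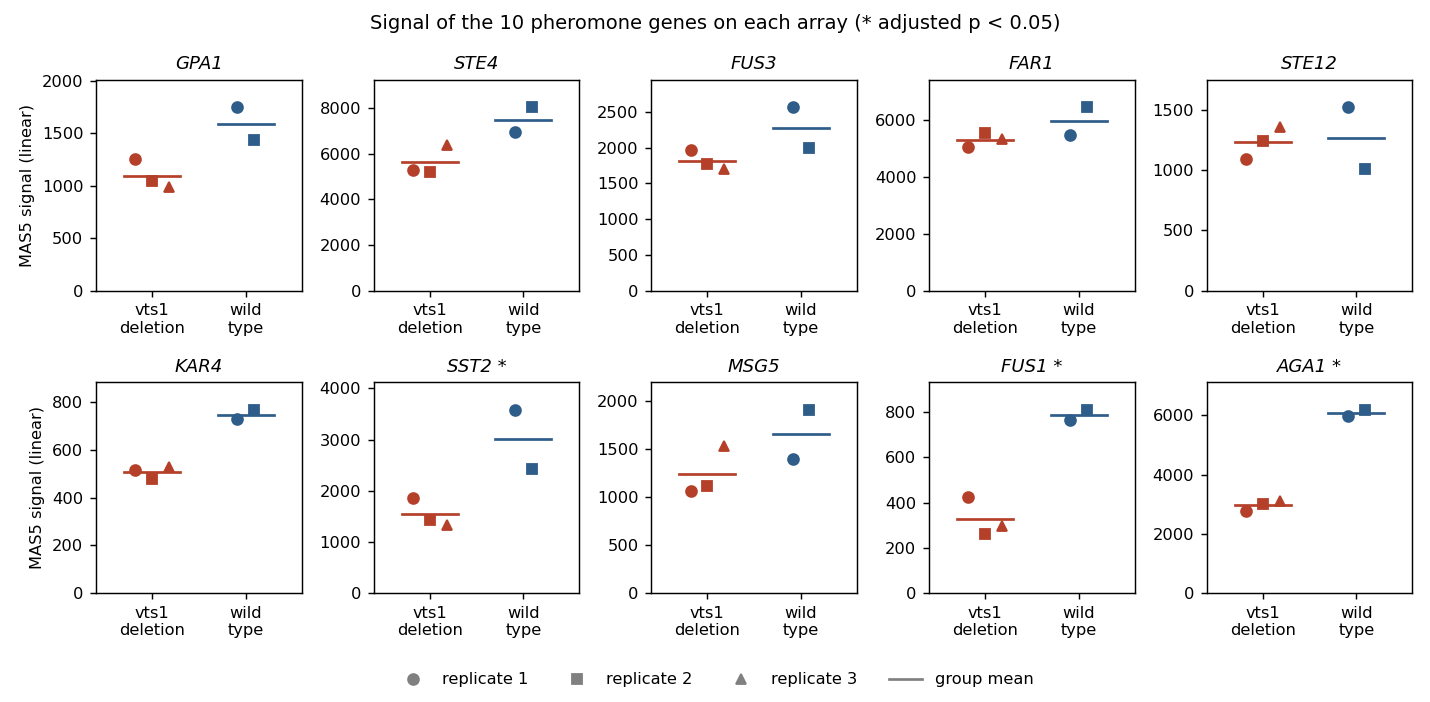
Each panel plots the MAS5 signal (linear axis from 0) of 1 pheromone gene on the 3 vts1 deletion arrays (left) and the 2 wild type arrays (right). Symbols give the replicate number, bars the group mean, and an asterisk an adjusted p under 0.05. The groups are separate in 7 panels and overlap for FAR1, STE12 and MSG5. Signals of different panels are not comparable.

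Among the genes that act in adhesion and fusion, AGA1 and FUS1 both fell. AGA1 (YNR044W), the cell-wall anchor subunit of the agglutinin by which a-cells stick to their partners, had signals of 2770, 3007.1 and 3114 on the deletion arrays, against 5978.7 and 6175.9 on the wild type arrays. Both groups were tight, and the distance between them was many times their spread. The means were 2964 ± 176 (SD, n = 3) in the deletion strain and 6077 ± 139 (SD, n = 2) in the wild type, a 2.05-fold decrease (log2 change -1.04 ± 0.12 SE, adjusted p = 0.0002). AGA1 kept its call under all 14 alternative settings, with an adjusted p between 5.9e-05 and 0.0245. Its neighbour MVD1 on the chromosome, which encodes an enzyme of sterol precursor synthesis, was at -0.31 ± 0.11 on the same log2 scale (adjusted p = 0.128). PET494, on the other side of AGA1, was at -0.02 ± 0.18 (adjusted p = 0.955).

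FUS1 (YCL027W), a membrane protein of the mating projection that is needed for cell fusion and a standard reporter of Ste12 activity, had signals of 425.8, 260 and 298.1 in the deletion strain, against 763.7 and 808.9 in the wild type. The wild type arrays were close to each other, and deletion replicate 1 was the highest of the deletion arrays without reaching the wild type. The means were 328.0 ± 86.8 (SD, n = 3) in the deletion strain and 786.3 ± 32.0 (SD, n = 2) in the wild type. The decrease fitted on the log2 scale was 2.45-fold (log2 change -1.29 ± 0.26 SE, adjusted p = 0.00816). This was the largest decrease among the 10 genes and had the widest interval, -1.85 to -0.73 on the log2 scale (95%). FUS1 lay the closest to background of the 10 genes, and its call was lost, among other settings, without the filter on dim probe sets (adjusted p = 0.143) and without wild type replicate 2 (adjusted p = 0.0666).

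Among the inhibitors of the pathway, SST2 fell and MSG5 did not pass the test. SST2 (YLR452C), the regulator of G protein signalling that speeds up GTP hydrolysis by Gpa1, had signals of 1857.4, 1434.2 and 1332.3 in the deletion strain, against 3578.2 and 2429.1 in the wild type. The groups did not overlap, but the wild type arrays were far apart, with a coefficient of variation of 27.1%. The means were 1541 ± 278 (SD, n = 3) in the deletion strain and 3004 ± 813 (SD, n = 2) in the wild type. The decrease fitted on the log2 scale was 1.93-fold (log2 change -0.95 ± 0.19 SE, adjusted p = 0.00912). The call rests in part on single arrays: the adjusted p was 0.0790 without wild type replicate 1 and 0.0558 without deletion replicate 3. It was also lost without the filter on dim probe sets (adjusted p = 0.201).

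MSG5 (YNL053W), the dual-specificity phosphatase that inactivates Fus3 and is itself induced by pheromone, had signals of 1068, 1119 and 1536.6 in the deletion strain and 1403.5 and 1910 in the wild type. Deletion replicate 3 lay above wild type replicate 1, so the groups overlapped. The log2 change was -0.42 ± 0.20 (adjusted p = 0.247), with an interval of -0.85 to 0.01, which just includes 0.

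Both G protein subunits had lower signals in all deletion arrays without passing the test. GPA1 (YHR005C), the alpha subunit that holds the pathway off until the receptor is bound, had signals of 1250.3, 1046.6 and 989.9 in the deletion strain, against 1746 and 1434.2 in the wild type. Its log2 change was -0.54 ± 0.17 (adjusted p = 0.0825). GPA1 passed the threshold without deletion replicate 1 (adjusted p = 0.0465) and with arrays weighted by their quality (adjusted p = 0.0370). STE4 (YOR212W), the beta subunit that carries the signal to the kinases, had signals of 5284.4, 5207.8 and 6406.7 in the deletion strain, against 6962.4 and 8045.1 in the wild type. Deletion replicate 3 was the highest of its group and still below both wild type arrays. The log2 change of STE4 was -0.42 ± 0.13 (adjusted p = 0.0923), and it passed only with array weights (adjusted p = 0.0426). The gene of the gamma subunit, STE18, had signals of 670.8, 844 and 714.6 in the deletion strain and 542 and 539.1 in the wild type, a log2 change in the other direction, 0.45 ± 0.20, that did not pass either (adjusted p = 0.208).

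FUS3 (YBL016W), the mitogen-activated protein kinase of the pathway, had lower signals on all deletion arrays for its brightest and for a dimmer probe set. Only the dimmer one passed the test. The brightest had signals of 1963.9, 1773 and 1696 in the deletion strain and 2566.3 and 1998.4 in the wild type, with all deletion arrays lower by a small margin (log2 change -0.33 ± 0.15, adjusted p = 0.250). A dimmer probe set of FUS3 had 1015.2, 1202.5 and 1281.9 in the deletion strain and 1586.8 and 2117 in the wild type, and it fell past the threshold (log2 change -0.66 ± 0.18, adjusted p = 0.0399). The third, at 6.7, 25.1 and 6.6 in the deletion strain and 3.6 and 32.3 in the wild type, was below background on every array and says nothing about the transcript. The counts use the brightest probe set of a gene, so FUS3 is not among the genes counted as lower.

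FAR1 (YJL157C), which arrests the cell cycle in G1 when Fus3 phosphorylates it and guides growth toward the partner, had signals of 5054.3, 5572.6 and 5354.1 in the deletion strain and 5497.7 and 6467.1 in the wild type. The groups overlapped, and the log2 change was -0.16 ± 0.13 (adjusted p = 0.498). Its interval, -0.44 to 0.11, does not include the log2 changes of AGA1, FUS1 or SST2.

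The transcription factor STE12 (YHR084W), on which the induction of the other response genes depends, had signals of 1095.9, 1243.7 and 1356.4 in the deletion strain and 1522.4 and 1013.5 in the wild type. All deletion arrays lay between the wild type arrays. The log2 change was -0.02 ± 0.19 (adjusted p = 0.974, interval -0.44 to 0.40), and its sign turned in 3 of 14 alternative settings. Changes of the floor, the filter or the variance model left its log2 change as it was, so those settings could not turn the sign. KAR4 (YCL055W), a transcription factor that works with Ste12 at genes of nuclear fusion, had signals of 517.2, 477.4 and 527.5 in the deletion strain, against 727.5 and 766.3 in the wild type. Both groups of KAR4 were tight and well apart, with coefficients of variation of 5.21% in the deletion strain and 3.67% in the wild type. Its log2 change of -0.56 ± 0.20 did not pass (adjusted p = 0.119). KAR4 passed under none of the 14 alternatives, with an adjusted p of at least 0.0675.

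**Figure D2:**
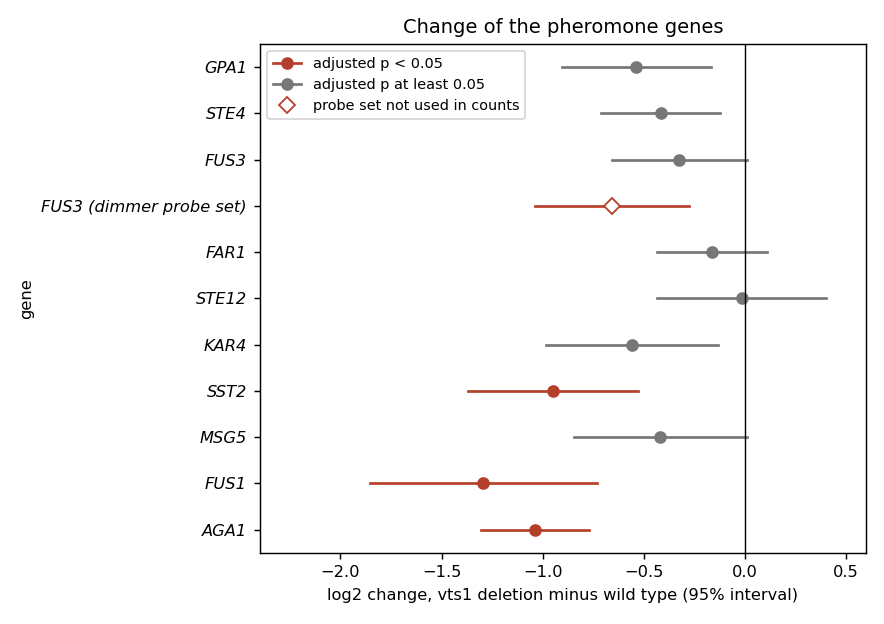
The log2 change (vts1 deletion minus wild type, horizontal axis) is plotted with its 95% interval for the 11 tested probe sets of the 10 genes, ordered by role from the G protein at the top to the mating surface at the bottom. AGA1, FUS1, SST2 and the dimmer probe set of FUS3 (open diamond) have an adjusted p under 0.05. The intervals of FUS3 (brightest probe set), FAR1, STE12 and MSG5 include 0.

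The 3 deletion arrays were alike in the median of the 10 genes and differed from gene to gene. The median log2 signal of the 10 genes relative to the wild type mean was -0.52 on deletion replicate 1, -0.57 on replicate 2 and -0.46 on replicate 3. No deletion array was lowest throughout: replicate 1 was the lowest for 4 of the genes, replicate 2 for 3 and replicate 3 for 3. STE4 and MSG5 were least reduced on replicate 3, whereas FUS1, SST2 and GPA1 were least reduced on replicate 1. The wild type arrays differed most in STE12, SST2 and MSG5, at 0.29, 0.28 and 0.22 to either side of their mean.

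**Figure D3:**
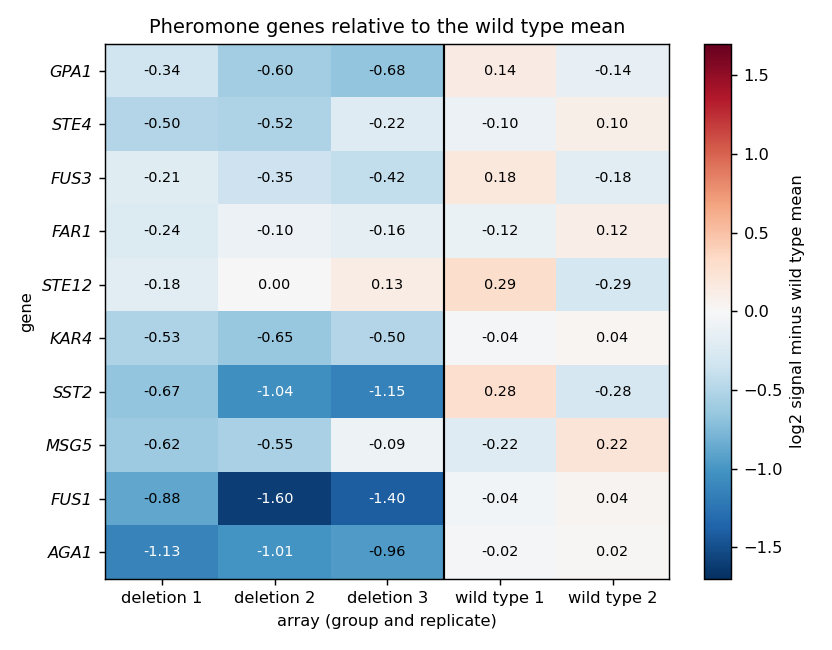
Each cell gives the log2 signal of a pheromone gene (rows) on an array (columns, deletion left of the line and wild type right) minus the mean of the wild type arrays, so wild type values mirror each other by construction. Blue is lower and red is higher. On the deletion side AGA1, FUS1 and SST2 lie between -0.67 and -1.60, and STE12 between -0.18 and 0.13.

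Among all probe sets tested, ranked by log2 change from the lowest, FUS1 stood at percentile 0.620, AGA1 at 0.985 and SST2 at 1.22. KAR4 and GPA1 followed at 4.73 and 5.35, MSG5 and STE4 at 9.68 and 9.76, FUS3 at 15.1, FAR1 at 32.2 and STE12 at 52.5. These ranks use the size of the change alone, and neighbours in the order have intervals that overlap.

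**Figure D4:**
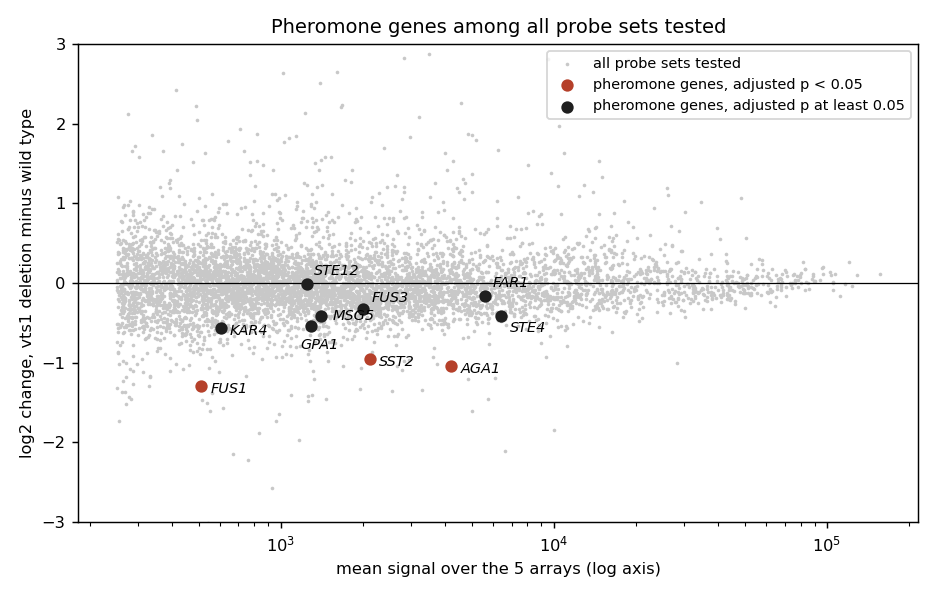
The log2 change (vts1 deletion minus wild type) is plotted against the mean signal over the 5 arrays (log axis) for all 6294 probe sets tested (grey) and the 10 pheromone genes (large points, red for an adjusted p under 0.05). FUS1, AGA1 and SST2 lie at the lower edge of the cloud for their brightness, the other genes within it. The axis stops at 3 in each direction and leaves out 14 probe sets.

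The rest of the pathway was read from lists of its known genes, written by role. Together they hold 57 genes besides the 10, of which 48 were bright enough to be tested. Of these, 2 fell, PRM7 and AGA2, and 1, AKR1, rose, while 45 did not pass. Set against 3.05% lower and 4.39% higher over all probe sets, these counts are close to the background. The median log2 change of the 48 was -0.11, and 15 had all deletion arrays below both wild type arrays while 7 had them above, against 21.7% and 16.8% of all probe sets tested. No test set the 10 genes against the 48.

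PRM7 (YDL039C), named for its regulation by pheromone, had signals of 3383.9, 3481 and 3218.5 in the deletion strain, against 8226.5 and 10390.4 in the wild type. The groups were far apart, with a log2 change of -1.46 ± 0.13 (adjusted p = 2.9e-05), and its dimmer probe set also fell (-1.35 ± 0.16, adjusted p = 0.000177). PRM7 kept its call under all 14 alternatives. AGA2, the adhesion subunit of a-agglutinin that is bound to Aga1 by disulfide bonds, had signals of 2258.8, 2452.8 and 2420.6 in the deletion strain, against 3456.9 and 3203 in the wild type. Its log2 change was -0.49 ± 0.13 (adjusted p = 0.0393). AKR1, a palmitoyltransferase that restrains the pathway in the absence of pheromone, had signals of 2543.8, 2593.4 and 2439.9 in the deletion strain, against 1852.9 and 1702.9 in the wild type (log2 change 0.51 ± 0.13, adjusted p = 0.0376). AKR1 was the only gene to pass among the 5 listed for adaptation to the signal, which include the phosphatases PTP2 and PTP3. The calls of AGA2 and AKR1 were near the threshold and were lost without any 1 of the 5 arrays, with adjusted p-values of 0.0714 to 0.151 for AGA2 and 0.0597 to 0.170 for AKR1.

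Among ligands, receptors and the enzymes that mature the factors, 0 of 13 tested genes passed in limma's fit in either direction (at an unadjusted p under 0.05, 2 were lower and 2 higher). Over all probe sets tested, 11.1% were lower and 10.3% higher at that unadjusted threshold. STE2, the receptor for alpha-factor, had signals of 4768.1, 5009.8 and 5451.2 in the deletion strain and 4885.2 and 4996.9 in the wild type, with a log2 change of 0.04 ± 0.12 (adjusted p = 0.893). The a-factor genes ran the other way from the surface genes: MFA1 had 41634.6, 41899 and 39874.7 in the deletion strain, against 34161.9 and 29964 in the wild type (log2 change 0.36 ± 0.12, adjusted p = 0.0881). MFA2 had 62852.5, 68320.1 and 55946.8 in the deletion strain, against 51981.1 and 49383.1 in the wild type (0.30 ± 0.12, adjusted p = 0.197). The groups did not overlap on these probe sets, and neither change passed the test. A dimmer probe set of MFA1 had 3491.9, 3953.4 and 3057.3 in the deletion strain and 3780.3 and 2578 in the wild type, with overlapping groups (log2 change 0.16, adjusted p = 0.655).

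In the signal relay, from the gamma subunit STE18 to the Ste12 partner TEC1, 0 of 14 genes passed in limma's fit (at an unadjusted p under 0.05, 2 were lower and 3 higher), with log2 changes between -0.52 for KSS1 and 0.54 for STE5. KSS1, the kinase that overlaps in function with FUS3, had signals of 386.7, 327.9 and 277.4 in the deletion strain and 409.9 and 539.8 in the wild type (adjusted p = 0.292). STE5, the scaffold of the cascade, had 1266.2, 1414.9 and 1175.6 in the deletion strain and 983.2 and 788.8 in the wild type (adjusted p = 0.0843). All 3 deletion arrays lay below the wild type arrays for 5 of the 14 relay genes and above them for 2, against 21.7% and 16.8% of all probe sets tested. At an unadjusted p under 0.05 the shares over all probe sets were 11.1% lower and 10.3% higher.

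Of 28 listed mating and Ste12 target genes outside the 10, 22 were tested, 2 fell (PRM7 and AGA2) and none rose (at an unadjusted p under 0.05, 4 were lower and 4 higher). Over all probe sets tested, 3.05% were called lower and 4.39% higher, and 11.1% and 10.3% had an unadjusted p under 0.05 in these directions. The list had a median log2 change of -0.13. The 6 genes too dim to be tested were ASG7, FIG1, FUS2, PRM2, PRM3 and PRM6. FIG1, a membrane protein of mating cells, was at 88.1, 61.4 and 112 in the deletion strain and 172.1 and 159.8 in the wild type, and FUS2, a cell fusion protein, at 124.6, 234.4 and 243.8 in the deletion strain and 278.6 and 274.1 in the wild type. In both the deletion arrays lay below the wild type arrays, at signals close to background, so no fold is given. PRM1, which acts in the fusion of the plasma membranes, had 471.4, 273.1 and 255.2 in the deletion strain and 443.2 and 504.2 in the wild type, with overlapping groups (adjusted p = 0.322).

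**Figure D5:**
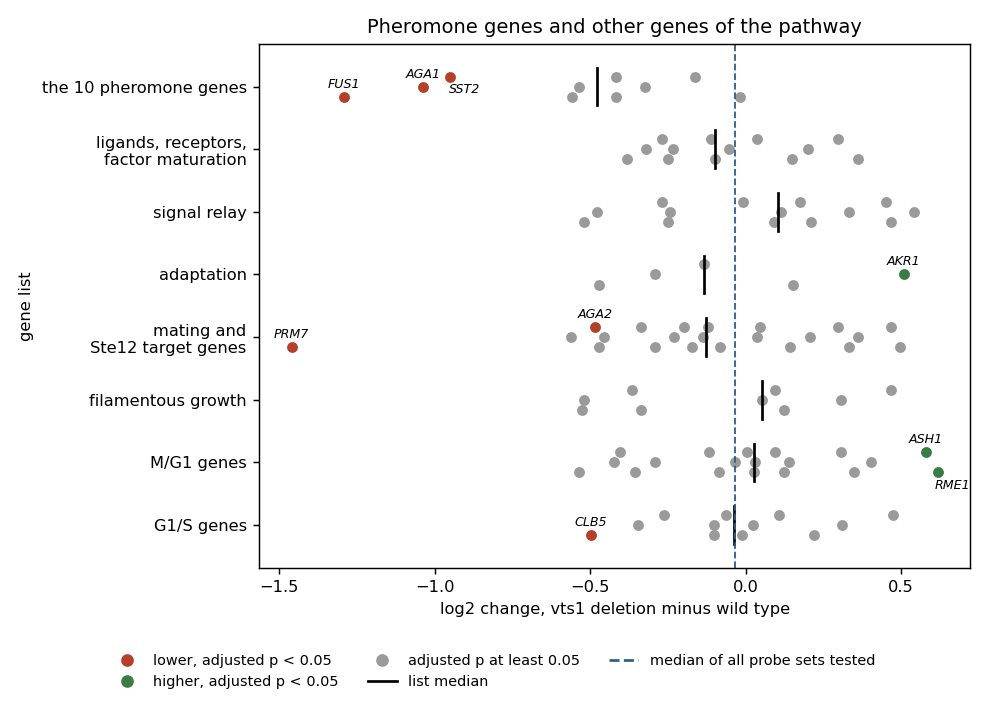
Each point is the log2 change (vts1 deletion minus wild type) of 1 tested gene, by list; red genes fell and green genes rose at an adjusted p under 0.05, and vertical bars give list medians. The dashed line is the median of all probe sets tested, -0.04. The 10 pheromone genes have a median of -0.48, and the other lists lie between -0.14 and 0.10. Some genes stand in more than 1 list.

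Several pheromone genes, AGA1, FUS1, SST2, KAR4 and FAR1 among them, are known to vary with the cell cycle and to be higher around the M/G1 boundary, and Ste12 also serves filamentous growth. Of 19 tested M/G1 genes, 2 rose and none fell (at an unadjusted p under 0.05, 5 were higher and 3 lower), with a median of 0.03. Over all probe sets, 4.39% were called higher and 3.05% lower, and 10.3% and 11.1% had an unadjusted p under 0.05 in these directions, which also serve for the lists that follow. RME1, a repressor of meiosis expressed in haploid cells, rose by 0.62 ± 0.12 on the log2 scale (adjusted p = 0.00878). ASH1, a daughter-cell repressor of mating-type switching, rose by 0.58 ± 0.14 (adjusted p = 0.0281). The call of RME1 was lost without deletion replicate 2 or 3 (adjusted p = 0.0552 and 0.0546). That of ASH1 was lost without deletion replicate 2, deletion replicate 3 or wild type replicate 1 (adjusted p = 0.127, 0.103 and 0.169). Of 12 tested G1/S genes, 1 fell, the S-phase cyclin gene CLB5 (-0.50 ± 0.14, adjusted p = 0.0491), a call lost without any 1 array (adjusted p = 0.0748 to 0.244), and none rose (at an unadjusted p under 0.05, 1 was higher). In the filamentous growth list, 0 of 9 tested genes passed in limma's fit (at an unadjusted p under 0.05, 1 was lower and 1 higher). The part of cell-cycle position in the lower AGA1, FUS1 and SST2 signals was not tested.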

How the data were processed

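The deposited table holds a linear signal intensity for each of 9335 probe sets on 5 arrays. The authors used MAS5, per the submitters' processing notes, in a version not stated there. The values show that arrays had been scaled before deposit (means after trimming 2% at each end of 2502 to 2503), so no further scaling was applied. The 60 control probe sets were left out. Gene names came from the platform annotation: 6504 probe sets had 1 gene, 328 several and 2443 none, and all 6504 gene identifiers were in the reference gene table (assembly R64).

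Signals were floored at 50.1 (the trimmed mean over 50) and put on a log2 scale, and the 6294 probe sets with a mean signal of at least 250.3 were fitted with limma 3.58.1 in R 4.3.3 (lmFit, eBayes with a variance trend, group as the only term). P-values are two-sided and adjusted by Benjamini and Hochberg over all 6294. Errors of log2 changes are SE. Folds come from the log2 changes and can differ from the ratio of the mean signals. Background is the 95th percentile of 28 control probe sets. A gene is represented by its brightest probe set. The number of arrays limits the precision. The procedure was tested on simulated data.

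The members and lists were chosen with earlier results of these data known, and lists were described by counts and medians, without a set test. Named are all 10 members, up to 6 called genes per list with the smallest p, and all listed cell type markers. STE18, STE2, MFA1, MFA2, KSS1, PTP2, PTP3, STE5, FIG1, FUS2, PRM1, MVD1, PET494, PEP1 and ACH1 were chosen after their values were seen. Alternatives were quantile normalization, other floors and filters, other variance models, array weights, a replicate block and each array left out. A planned search of promoters for the Ste12 motif was not run, and no sequences are shown.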

Additional observations from a re-analysis of the deposited data

How the results depend on the processing

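Over 14 alternative settings, all planned, the count of pheromone genes that rose was 0 throughout, and the count that fell (3) stayed within 1.5 times in 12. It was 1 without the filter on dim probe sets and 5 with array weights, and 2 to 4 with arrays left out in turn. STE12 turned to a log2 change of 0.00246 with array weights, 0.06 without deletion replicate 1 and 0.28 without wild type replicate 1, and ranged from -0.31 to 0.28 with arrays left out. The other 9 genes kept their sign. Other floors, filters and variance models left the log2 changes of all these genes as they were and so could not turn a sign. No scaling moved the median of all probe sets by over 0.1. Among the other pathway genes (2 lower, 1 higher), 1 was lower and 2 were higher with quantile normalization, 2 were higher with array weights, and 1 was lower and 0 higher without the filter or without a variance trend. With arrays left out, 1 was lower each time and 0 to 1 higher. Over all probe sets (192 lower, 276 higher), 51 were lower and 54 higher without the filter, 106 were lower without a variance trend, and leaving out arrays gave 94 to 161 lower and 176 to 320 higher. SST2 lost its call without a variance trend (adjusted p = 0.0614). AGA2, AKR1, RME1, ASH1 and CLB5 lost theirs without the filter, without a variance trend or with the replicate block, and AGA2 and CLB5 also with quantile normalization. The cause of these shifts was not tested. Without a wild type array, the lone array left is assumed to vary like the deletion arrays.

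The labels do not say that equal replicate numbers pair arrays. The deviations of arrays with the same number correlated at r = -0.07 for both pairs (across probe sets). The wild type arrays deviate from their mean as mirror images by construction, so the values of the pairs are not independent. With a replicate block, 2 pheromone genes fell (FUS1 had an adjusted p of 0.0780), 1 other pathway gene was lower and 0 higher, and over all probe sets 69 were lower and 149 higher. Deletion replicate 3 has no wild type array of its number. The block therefore gave these genes the same log2 changes as leaving that array out (-1.07 for AGA1 and -1.24 for FUS1).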

Other observations

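The genes that lie next to the 10 pheromone genes on their chromosomes were taken from the order of protein-coding genes in the reference table. There are 20 such neighbours, of which 17 were tested. In limma's fit 0 of the 17 passed the threshold in either direction (at an unadjusted p under 0.05, 1 was lower and 3 higher), with log2 changes between -0.31 and 0.41 and a smallest adjusted p of 0.128. Over all probe sets 3.05% were called lower and 4.39% higher, so few calls would be found among 17 genes at that rate. At an unadjusted p under 0.05 the shares over all probe sets were 11.1% lower and 10.3% higher. All deletion arrays lay below the wild type arrays for 3 of the neighbours, MVD1 next to AGA1 among them, and above for 4. Over all probe sets tested these shares were 21.7% and 16.8%. FUS3 lies between PEP1, a vacuolar sorting receptor gene, and ACH1, a mitochondrial CoA transferase gene, and each of these had higher signals on every deletion array than on either wild type array. PEP1 had signals of 4669.7, 4852.8 and 5288.2 in the deletion strain, against 4644.1 and 3147.3 in the wild type (log2 change 0.37 ± 0.16, adjusted p = 0.213). Its signal on deletion replicate 1 was only just above that on wild type replicate 1. ACH1 had 1379.6, 1504.1 and 1367.1 in the deletion strain, against 961.5 and 1175 in the wild type (log2 change 0.41 ± 0.16, adjusted p = 0.155). The brightest probe set of FUS3 itself was lower on all deletion arrays.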
